A study of Oryza sativa with 8 samples.

Results

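Alpha- and beta-expansins of rice roots were compared between a higher and a low supply of ammonium. The set held 8 loci, the alpha-expansins EXPA2 (Os01g0823100), EXPA4 (Os05g0477600), EXPA8 (Os01g0248900) and EXPA17 (Os06g0108600) and the beta-expansins EXPB2 (Os10g0555700), EXPB3 (Os10g0555900), EXPB4 (Os10g0556100) and EXPB6 (Os10g0555600). Members were the non-control spots whose probe name begins with one of these loci. Of the 8 loci, 7 had spots, 24 in all, among 29689 loci and 43734 non-control spots. No spot was named for EXPA17, a gene needed for root hair elongation in rice, and it was not analysed here.

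Whole roots of the japonica cultivar Koshihikari were measured on 8 one-colour arrays, 1 per RNA sample. Seedlings grew for 10 days with ammonium chloride at 1 mM (4 arrays) or 0.005 mM (4 arrays), and both groups share cultivar, age and tissue. The submitters describe the 4 samples of a group as biological replicates and do not say how many plants went into each. All arrays of a group lay on 1 slide of their own, so in every comparison the slide cannot be told apart from the supply of ammonium.

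Expansins are small wall proteins that loosen the bonds between cellulose and the other polysaccharides, without cutting them, and so let a cell enlarge under turgor. Alpha-expansins are the classical acid-growth proteins of all land plants. Beta-expansins are unusually numerous in grasses, whose walls are rich in arabinoxylan. In roots both kinds are expressed mainly where cells elongate and where root hairs grow out.

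Levels are log2 signals relative to the 75th percentile of the same array, so 0 is the level of that percentile. Changes are differences of these levels, 1 mM minus 0.005 mM, with a standard error from limma and n = 4 per group. A gene was called changed at a Benjamini-Hochberg adjusted p under 0.05 over all 24981 units tested, a unit being a locus or a probe with no locus. Each array had 81.4% to 85.1% of its spots well above background, and saturation was marked at none of the non-control spots. Correlations across units were 0.9925 to 0.9966 within groups and 0.9243 to 0.9344 between them.

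All 7 measured expansins rose at 1 mM ammonium, with changes of 0.55 to 1.78 on the log2 scale, and 3 of them rose at least 2-fold. By the probe that stands for each gene, EXPA4 had the largest change and EXPB3 the smallest. In this comparison 32.2% of all units were called higher and 43.8% lower, and 9.85% were called at least 2-fold higher. The median change of the 7 genes was 0.98, against -0.087 over all units. In whole roots, more cells of a type and more RNA per cell cannot be told apart. With the arrays centred on spike-in control probes, every gene of the set still lay above 0, but EXPB3 no longer passed the threshold (0.17, limma adjusted p = 0.144).

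The alpha-expansins included the largest rise. EXPA4, first described from the fast-growing internodes of deepwater rice, had levels of 0.04, -0.53, -0.41 and -0.01 on the 1 mM arrays, against -1.74, -1.84, -2.13 and -2.3 on the 0.005 mM arrays. All 1 mM values thus lay more than a log2 unit above the highest 0.005 mM value. The mean was -0.23 ± 0.29 at 1 mM and -2.0 ± 0.26 at 0.005 mM (SD, n = 4 each), a change of 1.78 ± 0.17 or 3.42-fold (limma adjusted p = 2.26e-05). Before scaling, the processed signal of its probe was 2340 to 3733 at 1 mM, against 808 to 1254 at 0.005 mM.

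EXPA2 had levels of 2.1, 1.87, 1.81 and 2.25 at 1 mM, against 0.75, 0.84, 0.76 and 0.73 at 0.005 mM. Its low-supply arrays lay close together and its 1 mM arrays spread more, with SDs of 0.20 at 1 mM and 0.05 at 0.005 mM, and the groups did not overlap. The change was 1.24 ± 0.09, or 2.36-fold (limma adjusted p = 6.49e-06).

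EXPA8, whose overexpression in rice enlarges the root system, had levels of -0.25, -0.37, -0.22 and 0.15 at 1 mM, against -0.92, -1.28, -1.16 and -1.25 at 0.005 mM. Replicate 4 was the highest of the 1 mM arrays and replicate 1 the highest of the 0.005 mM arrays, and again the groups stayed apart. It rose by 0.98 ± 0.12, or 1.97-fold (limma adjusted p = 0.000128). EXPA8 has a single probe on the array, so no other probe checks its value.

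**Figure D1:**
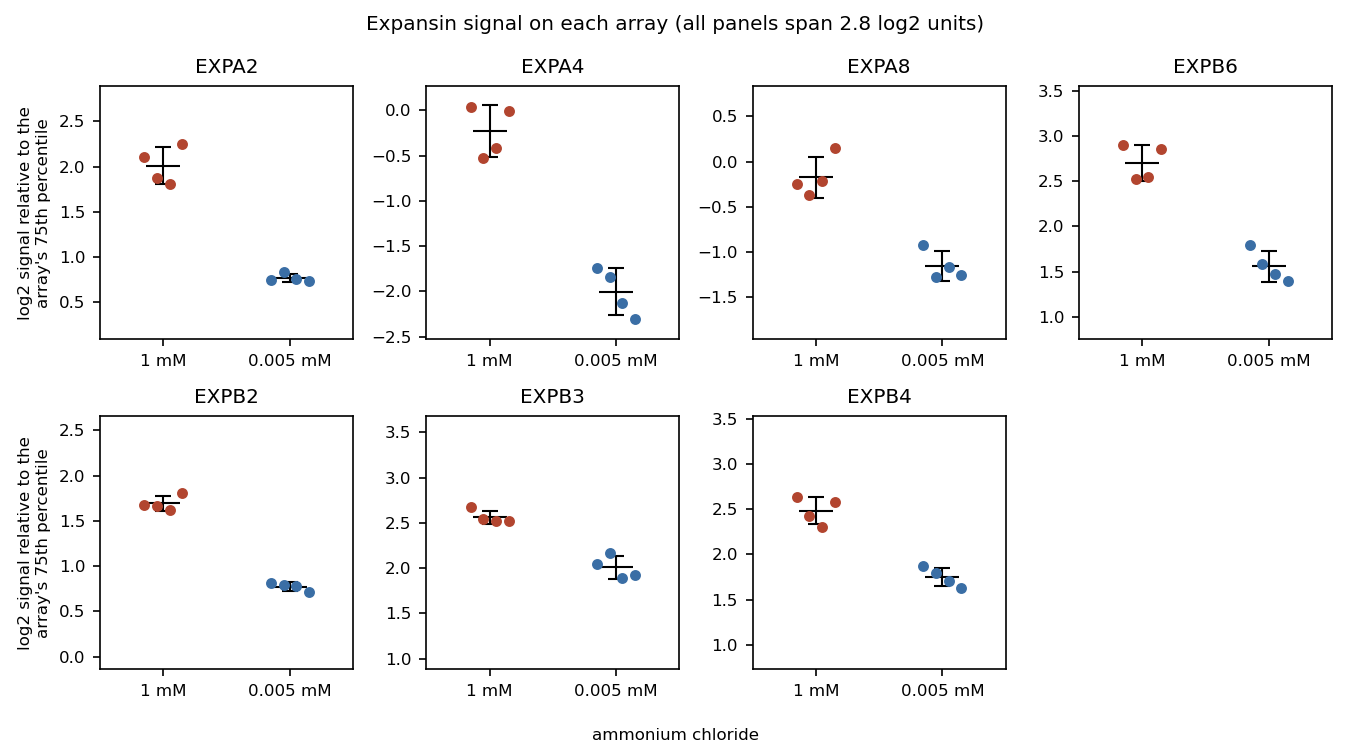
Log2 signal relative to the 75th percentile of the array (vertical axes, each spanning the same range) on the 4 arrays at 1 mM (left, red) and the 4 at 0.005 mM ammonium chloride (right, blue), 1 panel per gene; points are arrays, black bars the mean ± SD. In each of the 7 panels every 1 mM array lies above every 0.005 mM array, with the widest separation for EXPA4 (change of 1.78) and the narrowest for EXPB3 (0.55).

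The 4 beta-expansins are tandem copies on chromosome 10. In the RefSeq gene table (assembly ASM3414082v1) they follow each other in the order EXPB6, EXPB2, EXPB3 and EXPB4 with 0 other genes between neighbours, and the numbers of their loci run in the same order. All of them rose.

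EXPB6, at the start of the row, had the largest rise among the 4. Its levels were 2.90, 2.52, 2.54 and 2.85 at 1 mM, against 1.79, 1.58, 1.47 and 1.4 at 0.005 mM, with no overlap. The change was 1.14 ± 0.12, or 2.21-fold (limma adjusted p = 3.89e-05). Its probe had a processed signal of 18562 to 27116 at 1 mM, against 10463 to 14488 at 0.005 mM.

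EXPB2 had levels of 1.68, 1.67, 1.62 and 1.81 at 1 mM, against 0.82, 0.79, 0.78 and 0.71 at 0.005 mM. The arrays of each group nearly coincided, with SDs of 0.08 at 1 mM and 0.05 at 0.005 mM. Its change of 0.92 ± 0.05, or 1.89-fold, had the lowest adjusted p of the 7 genes (limma adjusted p = 9.87e-07).

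EXPB4 had levels of 2.63, 2.43, 2.30 and 2.58 at 1 mM, against 1.87, 1.79, 1.71 and 1.63 at 0.005 mM. These are the levels of its brightest probe, and those of its other probes were lower. Every 1 mM array stood above every 0.005 mM array. Its change was 0.73 ± 0.08, or 1.66-fold (limma adjusted p = 6.71e-05).

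EXPB3 had levels of 2.67, 2.54, 2.52 and 2.52 at 1 mM, against 2.05, 2.17, 1.89 and 1.92 at 0.005 mM. Although the groups did not overlap, this was the smallest change of the set by the probes that stand for the genes, 0.55 ± 0.07 or 1.47-fold (limma adjusted p = 0.00014). Groups that do not overlap and are higher at 1 mM were found for all 7 genes here and for 30.1% of all units, and groups apart in either direction for 71.6%. For a single gene, 4 arrays against 4 allow no exact permutation p below 0.0286 (two-sided), and each of the 7 reached it.

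The loci on both sides of the row were set beside it. The array holds no other locus between EXPB6 and EXPB4 by number. Of the 5 loci before and the 5 after, 8 were bright enough to be tested, and their changes ranged from -0.97 to 0.08. Of these, 0 were called higher and 5 lower, while 3 did not pass, and over all units 32.2% were higher and 43.8% lower. With 8 loci these counts are a description. Os10g0556200, the next locus after EXPB4, was at -0.97 ± 0.06 (limma adjusted p = 3.03e-06). These neighbours were chosen by position after the values of the set were known.

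**Figure D2:**
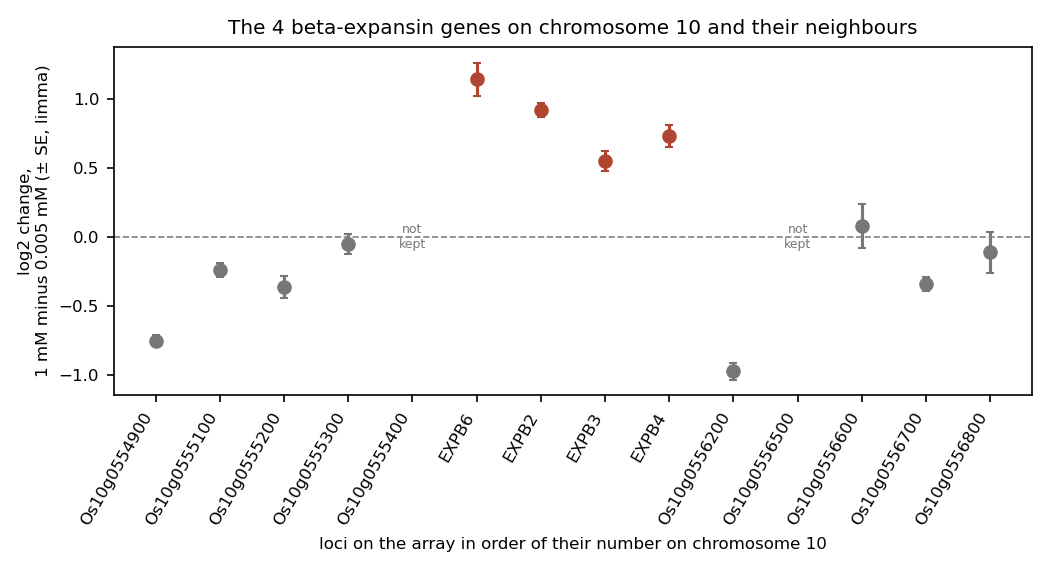
Log2 change, 1 mM minus 0.005 mM (vertical axis, ± SE from limma, n = 4 per group), for the loci of the array in order of their number on chromosome 10. The 4 beta-expansins (red) lie between 0.55 and 1.14, and the 8 tested neighbours (grey) between -0.97 and 0.08.

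The 7 genes were represented by 24 probes, of which 23 passed the filter (well above background on 4 or more of the 8 arrays). Each of the 23, taken as a unit of its own, was called higher at 1 mM, as were 33.8% of all 35953 probes tested as units. The 5 probes of EXPB6 gave changes of 1.14 to 1.16 and the 2 of EXPA2 gave 1.22 and 1.24. The 6 probes of EXPB4 gave 0.60 to 0.73 and the 3 of EXPB3 gave 0.46 to 0.55. In both genes the probe that stands for the gene gave the largest change and lay above the others in level. At 1 mM it had levels of 2.30 to 2.63 for EXPB4, against -0.52 to -0.15 for the other probes. For EXPB3 it had 2.52 to 2.67, against 1.51 to 1.71. Of the 3 probes of EXPA4, 2 gave 1.72 and 1.78. The third, designed on the untranslated part of cDNA AK058811 (transcript Os05t0477600-02), passed as well above background on a single array (1 of 8) and was not tested.

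Probes of EXPB2 differed. Its 3 probes for transcript Os10t0555700-01 all gave 0.92, and the probe on cDNA AK061068, assigned to transcript Os10t0555700-02, gave 0.45. Taken as a difference within each array, the change of the 02 probe was 0.47 smaller (difference -0.47, two-sided exact permutation p = 0.0286, n = 4 per group). This comparison was chosen after the values were seen. Whether probes of the 4 tandem genes also bind transcripts of the other copies was not tested.

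**Figure D3:**
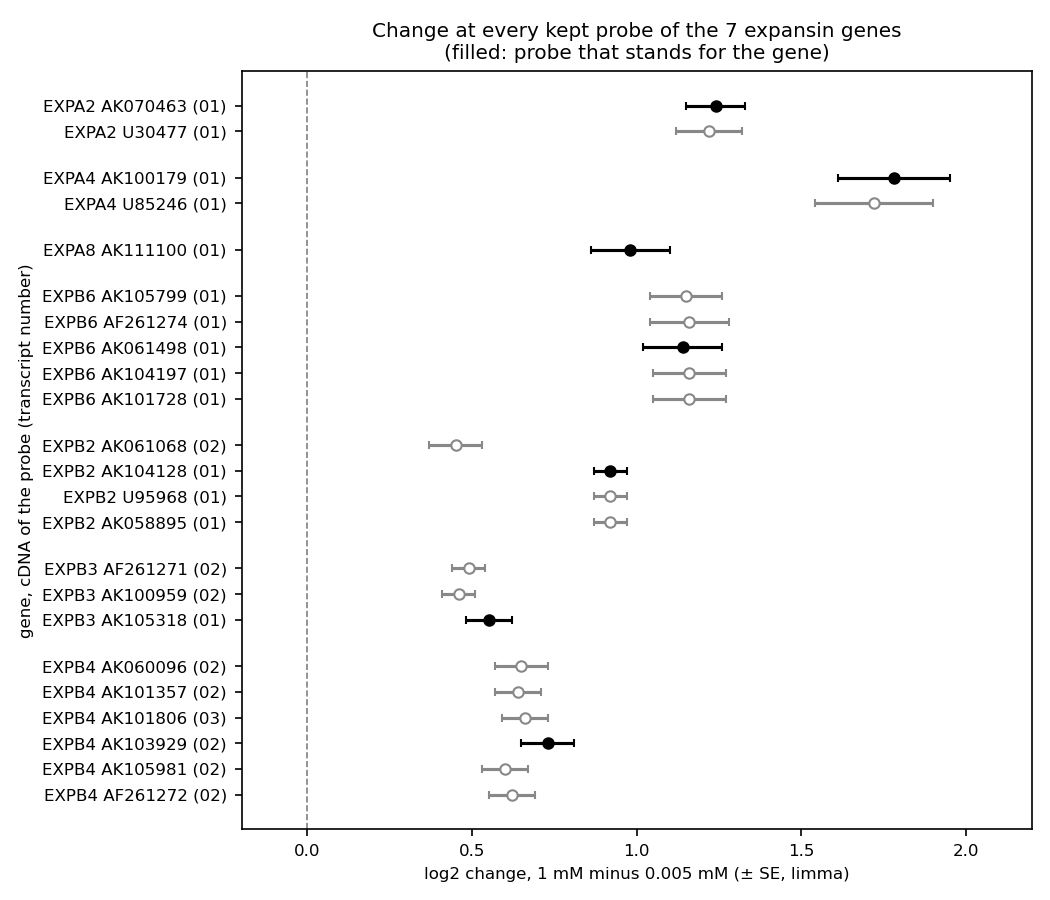
Log2 change, 1 mM minus 0.005 mM (horizontal axis, ± SE from limma, n = 4 per group), of the 23 kept probes, each named by gene, cDNA and transcript number; filled points mark the probe that stands for its gene. All 23 lie above 0, from 0.45 for the EXPB2 probe of transcript 02 to 1.78 for EXPA4.

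The size of the rise differed among the genes. For each of the 21 pairs, the difference between the probes that stand for both genes was taken on every array. A scaling that subtracts 1 value from a whole array cancels there. Quantile normalization does not cancel, and the pairs were not tested under it. With it EXPB6 changed by 0.98 and EXPA8 by 1.0, against 1.14 and 0.98 here. The groups were compared by a two-sided exact permutation test adjusted over the 21 pairs. For 13 pairs the changes differed (adjusted p = 0.0462, the smallest these tests gave). EXPA4 rose more than each of the other 6 genes, by 0.54 more than EXPA2 and by 1.22 more than EXPB3 (exact permutation, adjusted p = 0.0462 for each). By these probes EXPB3 rose less than every other gene except EXPB4, from which it differed by 0.18 (exact permutation, adjusted p = 0.106). Its order against EXPB2 depends on the probe, since the 02 probe of EXPB2 gave 0.45 and the probes of EXPB3 gave 0.46 to 0.55.

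Of the other 8 pairs, none passed. The closest were EXPA8 and EXPB2, with changes 0.06 apart (exact permutation, adjusted p = 0.543), and EXPA2 and EXPB6, 0.09 apart (exact permutation, adjusted p = 0.45). EXPA8 differed by 0.25 from EXPA2 (exact permutation, adjusted p = 0.106) and by 0.16 from EXPB6 (exact permutation, adjusted p = 0.221). EXPA2, EXPB6 and EXPA8 therefore have no settled order among themselves. Within the tandem row, EXPB6 rose by 0.59 more than EXPB3 and by 0.41 more than EXPB4 (exact permutation, adjusted p = 0.0462 for both), while its difference of 0.22 from EXPB2 did not pass (exact permutation, adjusted p = 0.106).

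The scaling between arrays set how large the rises were. The 75th percentile of an array, relative to the mean of 7 bright Agilent spike-in control probes, was -1.03 ± 0.11 at 1 mM and -0.65 ± 0.05 at 0.005 mM (SD, n = 4 each). These differ by -0.38 (exact permutation test, two-sided, p = 0.0286). Centring on the spike-in probes moved the median change of all units to -0.466 and lowered every expansin change by the same amount. EXPA4 then rose by 1.4 ± 0.17, EXPA2 by 0.86 ± 0.12 and EXPB6 by 0.76 ± 0.14, all still past the threshold. EXPA8 rose by 0.60, EXPB2 by 0.54 and EXPB4 by 0.36 (limma adjusted p = 0.0152). Relative to the median of all units, EXPA4 stood at 1.86 and EXPB3 at 0.64 with either scaling, since both subtract 1 value per array. With quantile normalization EXPA4 stood at 1.9 and EXPB3 at 0.48. With normexp and quantile normalization they stood at 1.72 and 0.48.

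**Figure D4:**
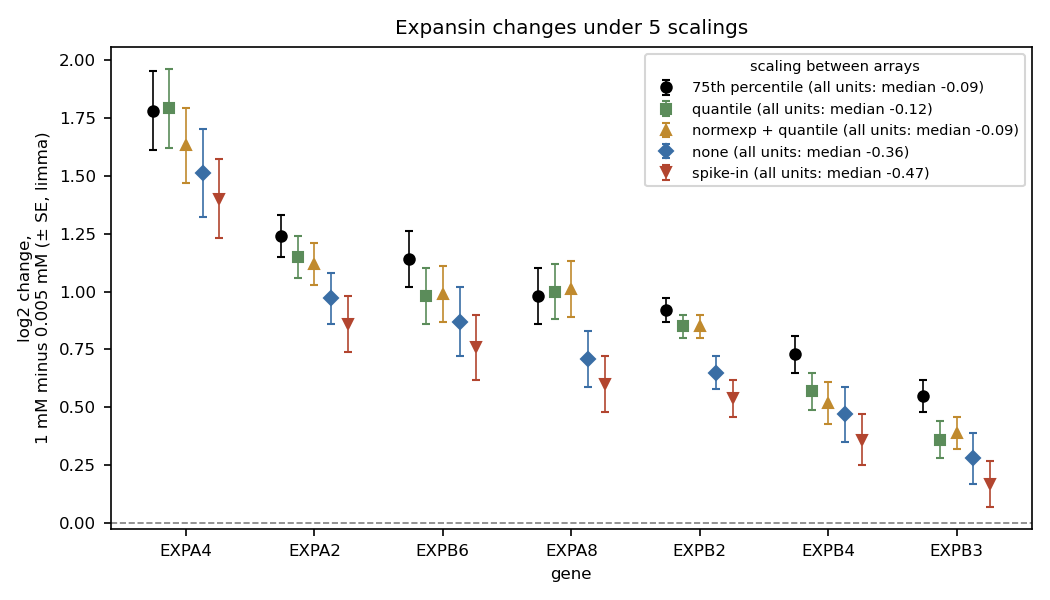
Log2 change, 1 mM minus 0.005 mM (vertical axis, ± SE from limma, n = 4 per group), of the 7 genes under 5 ways of scaling the arrays; the legend gives the median change of all units under each. All points lie above 0, and the lowest is EXPB3 with spike-in scaling at 0.17.

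Some genes of the set shared a pattern among the 1 mM arrays. There replicates 1 and 4 both stood above replicates 2 and 3 for 5 of the 7 genes, a pattern held by 21% of all units. EXPB2 held it narrowly, with levels of 1.68 in replicate 1 and 1.67 in replicate 2. EXPA8 and EXPB3 did not hold it. For EXPA4 the deviations from the mean of the 1 mM group were 0.27 and 0.22 in replicates 1 and 4, against -0.30 and -0.18 in replicates 2 and 3. This grouping of replicates was chosen after the values were seen. At 1 mM the share of spots well above background was 85.1% and 83.8% in replicates 1 and 4. In replicates 2 and 3 it was 81.8% and 81.6%. At 0.005 mM it was 82.7% and 83.7% in replicates 1 and 4, and 81.4% and 81.5% in replicates 2 and 3. There EXPA4 deviated by 0.26 and -0.30 in replicates 1 and 4, and by 0.16 and -0.12 in replicates 2 and 3. The part of this share in the pattern was not tested.

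The authors' deposited table lists spots with q-values and log2 ratios, nitrogen sufficient over nitrogen deficient. Sufficient was taken as 1 mM and deficient as 0.005 mM. Of the 24 expansin spots, 23 are in the authors' deposited table, all with ratios above 0, from 0.32 to 1.65. Of all non-control spots, 21.8% stand in the authors' deposited table as higher. For the probes that stand for EXPA4, EXPA2 and EXPB6, the authors' deposited table gives 1.65, 1.11 and 1.01. The spot it does not list is the dim EXPA4 probe.

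Other expansins were counted from a list of 24 loci. All 24 have spots, and 20 were bright enough to be tested. Of these 16 rose, 1 fell and 3 did not pass, with a median change of 0.66, against 32.2% of all units higher and a median of -0.087. Without scaling between arrays the counts were 10 higher and 2 lower, while 19.6% of all units were higher. With spike-in scaling they were 10 higher and 3 lower, while 16.2% of all units were higher. With the set above, 23 of 27 tested expansins were higher, and the RefSeq table holds 49 expansin symbols, so the family was not covered in full.

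Among the other alpha-expansins 7 of 9 rose and 2 did not pass. Without scaling between arrays 3 of 9 were called higher and 0 lower, and with spike-in scaling 3 were higher and 1 lower (EXPA10, at -0.34). Of all units, 19.6% were higher without scaling and 16.2% with spike-in scaling. EXPA1, EXPA7, EXPA9 and EXPA11 lost the call under both scalings. EXPA5 (Os02g0744200) had levels of 0.49, 0.12, -0.02 and 0.28 at 1 mM, against -1.17, -1.01, -0.91 and -0.95 at 0.005 mM, a change of 1.23 ± 0.11 (limma adjusted p = 1.82e-05). The groups were a full log2 unit apart in the mean and did not overlap. EXPA9 (Os01g0249100), the direct neighbour of EXPA8 on chromosome 1 in the RefSeq table, was at 0.65 ± 0.15 (limma adjusted p = 0.00401). Its change was 0.38 when arrays were left unscaled and 0.27 when centred on spike-in probes.

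Among the other beta-expansins 6 of 8 rose, 1 fell and 1 did not pass. Both without scaling and with spike-in scaling, 5 were called higher and 2 lower, against 19.6% and 16.2% of all units higher. Os03g0645000, at 0.27, lost its call there (0.0 without scaling, -0.11 with spike-in scaling). EXPB15, which did not pass at -0.14, was called lower under the other 4 scalings, at -0.29 to -0.52. EXPB18 (Os05g0246300) had levels of -0.85, -0.52, -0.91 and -0.60 at 1 mM, against -2.24, -2.53, -3.08 and -3.15 at 0.005 mM. The groups lay far apart, with a change of 2.03 ± 0.21 or 4.08-fold (limma adjusted p = 3.61e-05). EXPB7 (Os03g0102700) rose by 1.19 ± 0.10 (limma adjusted p = 9.69e-06). EXPB5 (Os04g0552200), a root hair expansin, rose by 1.11 ± 0.19 (limma adjusted p = 0.000833). EXPB17 (Os04g0530100) was the 1 that fell, at -0.41 ± 0.08 (limma adjusted p = 0.00198). Its other probe gave -0.09 ± 0.08 (limma adjusted p = 0.375).

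The expansin-like A genes, relatives with no known wall-loosening activity, held the largest change among the 27 tested expansins. EXLA2 (Os10g0542400) had levels of 0.78, 2.03, 2.52 and 1.61 at 1 mM, against -2.73, -2.80, -2.64 and -2.85 at 0.005 mM. The 1 mM arrays spread widely (SD 0.74) and still lay far above all low-supply arrays. Its change was 4.49 ± 0.32, or 22.4-fold (limma adjusted p = 4.59e-06). EXLA1 (Os03g0132200) rose by 2.09 ± 0.11, and EXLA3 (Os07g0475400), the weakest of the 3, rose by 0.20 ± 0.06 (limma adjusted p = 0.0113). The sign of EXLA3 turned to -0.07 without scaling and to -0.18 with spike-in scaling, neither past the threshold.

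**Figure D5:**
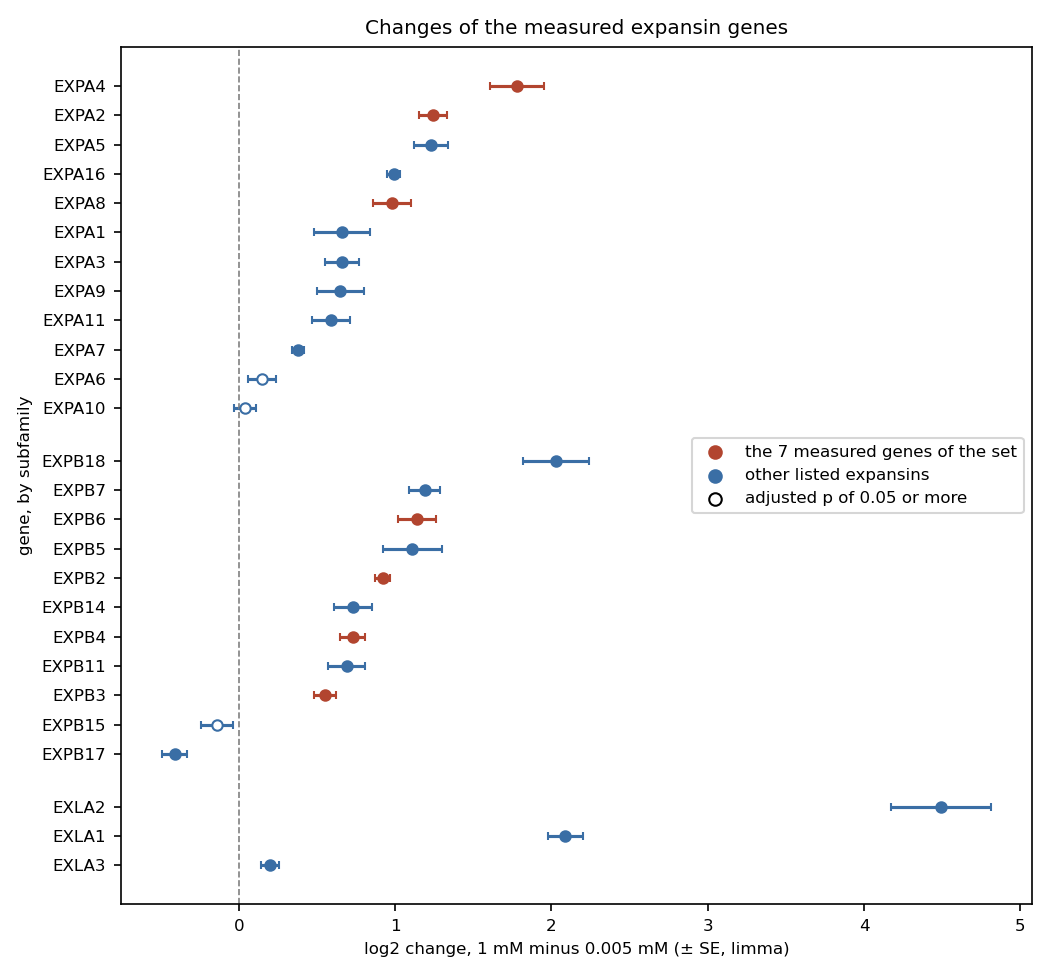
Log2 change, 1 mM minus 0.005 mM (horizontal axis, ± SE from limma, n = 4 per group), of the tested expansins with a printed name, grouped as alpha (EXPA), beta (EXPB) and expansin-like A (EXLA); red marks the 7 genes of the set and open points did not pass. EXLA2 stands apart at 4.49, and EXPB17 is the filled point below 0 (-0.41).

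Root hair genes other than expansins moved in both directions. Of the 3 listed, 2 were on the array, and 1 rose and 1 fell. CSLD1 (Os10g0578200), a cellulose synthase-like gene needed for root hair growth in rice, rose by 0.97 ± 0.07, with means of -2.41 ± 0.14 at 1 mM and -3.38 ± 0.02 at 0.005 mM (SD, n = 4 each). Os01g0897700 was lower, at -0.45 ± 0.08 (limma adjusted p = 0.000735). Os06g0184000, like EXPA17, had no spot named for it.

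Markers of roots and of other tissues were checked beside these results. The silicon transporter genes of roots, Lsi1 and Lsi2, were well above background on all arrays and changed by -0.77 ± 0.08 and -0.99 ± 0.07. Of the 3 root loci 2 were thus lower, and Os02g0662000 was higher at 0.94 ± 0.07. The summed signal of the 3, in multiples of the 75th percentile, was 121.58 to 127.22 at 1 mM and 109.61 to 118.98 at 0.005 mM. All 6 loci listed for green tissue were present and called higher at 1 mM, as were 32.2% of all units. Their median change was 1.24. The groups did not overlap for 5 of the 6, against 30.1% of all units apart and higher. Only 2 of the 6 passed the check of symbols described below. The summed signal of the 6 on the same scale was 190.15 to 224.78 at 1 mM and 74.33 to 88.37 at 0.005 mM. CAB2R, a chlorophyll-binding protein gene, changed by 1.92 ± 0.07. Of 2 seed storage loci, 1 was well above background on all 4 arrays at 1 mM and none at 0.005 mM, and the other on none. The part of these differences in the expansin changes was not tested.

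By likeness over the 8 arrays, the 3 units closest to EXPA4 were Os01g0946100 (Pearson r = 0.999), EXPB6 (r = 0.9973) and Os01g0103600 (r = 0.9972). These arrays form 2 groups, so such values mostly reflect the difference between groups, and they are given as a description. Over the 8 arrays the lowest correlation between any of the 7 expansins was 0.882.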

How the data were processed

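The members and gene lists were chosen with earlier results of these data known. Spot intensity in the deposited array files comes, per the file headers, from version 10.10.1.1 of Agilent Feature Extraction, and includes a background-corrected processed signal. The authors' deposited table holds p-values, q-values and a log2 ratio for listed spots; how it was made is not given in the sources used here, and its 8 columns per array, which match no sample title, were not used. The authors' ratios and the changes computed here correlated at r = 0.9993 over these 28381 listed spots, matched by feature number. Spots outside the list did not enter this value. The median of the authors' ratio minus the change computed here was -0.14.

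From each log2 processed signal the 75th percentile over the array's non-control spots was subtracted. Outlier spots were left out, and spots of a probe averaged. Probes well above background on at least 4 of 8 arrays were kept, and the kept probe with the highest mean stood for its locus. The two-sided comparison used lmFit and eBayes of limma 3.58.1 (R 4.3.3), also run on simulated data, with Benjamini-Hochberg adjustment over 24981 units. Exact permutation tests used scipy 1.17.1. The number of arrays limits the precision.

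Symbols were checked against the RefSeq table, which holds no RAP loci, by chromosome and by lying within 2 Mb of an interpolated position. All 8 members passed. This check cannot tell neighbouring genes apart. Named genes were all members, up to 6 other expansins with the largest called change, and root hair genes, with a symbol printed where it passed. EXPA1, EXPA7, EXPA9, EXPA10, EXPA11, EXPB15, EXPB17, EXLA3 and Os03g0645000 were named after their values were seen, as was CAB2R among 6 green tissue markers. Lsi1, Lsi2 and Os02g0662000 are the whole root marker list. The alternatives were other scalings, background correction, filters, units, variance models, a replicate block and leaving out each array. Same-numbered samples correlated at 0.3203, -0.0081, 0.1029 and 0.0758 in their deviations, and were not treated as pairs. The files hold no mean spot signal, so normexp used the median.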

Additional observations from a re-analysis of the deposited data

Results flagged for a closer look

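Of 28 groups of 4 arrays tested, 1 held a value far from its neighbours by Dixon's test, where chance gives about 1 in 20. It was EXPB3 on the replicate 1 array at 1 mM, with a level of 2.67, while the remaining 1 mM arrays lay between 2.52 and 2.54. The gap was 0.833 of the range of the group. Leaving that array out gave a change of 0.52 (limma adjusted p = 0.000438).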

How the results depend on the processing

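All alternatives were planned, with earlier results of these data known. Of 147 values of the 7 expansins under alternatives, 146 had the direction and call reported above. The exception was EXPB3 with spike-in scaling, at 0.17 (limma adjusted p = 0.144). For each gene the 147 include the unadjusted exact permutation test and the ratio in the authors' deposited table. Neither is a reprocessing of the arrays made here. Units higher at 1 mM numbered 4884 without scaling, 4035 with spike-in scaling and 12138 when each probe was its own unit, which raised the number tested to 35953, against 8050. Higher calls were 24.9% of all calls without scaling between arrays, 20.1% using spike-in probes and 42.4% as reported. Other expansins called higher numbered 10 under either of these scalings, against 16. Those called lower numbered 2 without scaling, 2 with quantile normalization, 3 with spike-in scaling, 2 with normexp and quantile normalization and 0 with every probe (where all probes of a locus must be called), against 1. EXPB15 was the second lower locus with quantile normalization. The cause of these shifts was not tested. Omitting single arrays gave 7660 to 7979 units higher, 10496 to 10992 lower, and 7 expansins higher and 0 lower throughout. It gave 16 other expansins higher and 1 to 2 lower, 2 without replicate 1 at 1 mM. The replicate block changed no call of the 7 expansins and gave 8110 units higher. A slide block was not run, since each group had a slide of its own. The dim EXPA4 probe and 4 other expansin loci were too near background to be tested.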
